A study of Mus musculus with 9 samples.

Results

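Branched-chain amino acid catabolism was described with 10 genes, Bcat1, Bcat2, Bckdha, Bckdhb, Dbt, Ivd, Mccc1, Mccc2, Pcca and Pccb, out of the 21873 genes of the liver mRNA table. They were chosen by gene symbol and not by a measured value, but with earlier results of these data known. All 10 were in the table. Liver RNA was sequenced from 9 male C57BL/6 mice that formed a control, a TAA and a recovery group of 3 each. The TAA group received thioacetamide (TAA), a toxicant that injures hepatocytes and leads to fibrosis, by intraperitoneal injection every 3 days over 8 weeks, and the control group received saline. Both were sacrificed 3 days after the last injection. The recovery group received the same 8 weeks of TAA and was then left untreated for 8 more weeks, so its mice were 8 weeks older, and no saline group of that age was analysed here.

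Leucine, isoleucine and valine share the first steps of their breakdown. A transaminase turns each into its keto acid, and the mitochondrial branched-chain keto acid dehydrogenase (BCKDH) complex then removes a carboxyl group and links the rest to coenzyme A. After that the routes part: the leucine route ends in acetyl-CoA and acetoacetate, while the valine and isoleucine routes yield propionyl-CoA, which enters the citric acid cycle as succinyl-CoA. Liver is known for high BCKDH activity and little transaminase activity, and much of the first step takes place in muscle.

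The values are FPKM, the fragments of a gene per kilobase of its length and per M fragments mapped, and each library was divided by its median ratio to the geometric mean of all libraries, over the genes detected in every mouse. The divisor ranged over 0.827 to 0.878 for control mice, 1.29 to 1.38 for TAA mice and 0.893 to 0.907 for recovery mice. A DEG had an adjusted p (FDR) below 0.05 in limma with Benjamini-Hochberg adjustment over 14094 tested genes and a fold change of at least 2, on log2(scaled FPKM + 0.1). Libraries held an estimated 26.8 to 40.6 M fragments, and the 9 tested genes had an estimated 941 to 7153 fragments each per library. In whole liver tissue, fewer hepatocytes and less RNA per hepatocyte cannot be told apart.

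Promoter sequences were looked at because the 9 tested genes moved together under the scaling used. RefSeq (GRCm38.p6) gave a start site for 9 of the 10 genes, all but Dbt, and the 250 bases upstream of it were searched on both strands. The 9 windows are therefore not those of the 9 tested genes, since they include Bcat1, which was not tested. The CCAAT box (CCAAT) was found in 6 of these 9 windows, those of Ivd, Mccc1, Mccc2, Bckdhb, Pcca and Bcat1, and in 33.8% of the 32851 promoters in the table. The windows of Pccb, Bckdha and Bcat2, all DEGs lower in TAA against control, held none. Whether the motif goes with the change was not tested. The windows of Ivd, Mccc1 and Mccc2, genes of the leucine route, held the most matches, with 4, 3 and 3. Ivd is shown at chr2:118861744-118861953 on the plus strand, cut where the annotated gene begins. So 3 of its 4 matches are shown, and the other lies past the cut, within the annotated gene. Mccc1 is shown at chr3:36000679-36000928 and Mccc2 at chr13:100015640-100015889, both on the minus strand. Capitals mark motif matches, which are CCAAT or its complement ATTGG, a GC box read as CCGCCC in Mccc1 and an E-box (CACGTG) in Mccc2, where a pair of the CCAAT matches overlap.
Ivd: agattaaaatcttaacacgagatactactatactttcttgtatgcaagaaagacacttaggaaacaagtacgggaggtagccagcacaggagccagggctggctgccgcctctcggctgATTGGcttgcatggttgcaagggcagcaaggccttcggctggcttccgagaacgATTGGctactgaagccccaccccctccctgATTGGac
Mccc1: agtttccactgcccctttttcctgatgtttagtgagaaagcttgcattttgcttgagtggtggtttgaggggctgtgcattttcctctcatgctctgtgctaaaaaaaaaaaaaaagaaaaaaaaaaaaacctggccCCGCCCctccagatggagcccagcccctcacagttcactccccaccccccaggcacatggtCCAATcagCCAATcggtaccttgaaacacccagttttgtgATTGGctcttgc
Mccc2: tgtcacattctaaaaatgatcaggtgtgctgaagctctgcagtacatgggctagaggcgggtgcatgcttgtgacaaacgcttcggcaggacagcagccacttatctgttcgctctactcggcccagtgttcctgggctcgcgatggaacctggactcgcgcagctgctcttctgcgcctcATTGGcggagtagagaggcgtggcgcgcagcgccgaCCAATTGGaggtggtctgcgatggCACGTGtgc
The GC box (GGGCGG) was in 3 of the 9 windows and in 32.7% of all promoters. The E-box was in 1 and in 6.02%, and the nuclear receptor element (AGGTCA) in 1 and in 14% of all promoters. The cyclic AMP response element (TGACGTCA) was in none of the 9 windows and in 1.55% of all promoters. The median GC content was 51.2% in the 9 windows and 52.4% over all promoters. A match describes the letters of the window and is no evidence of binding.

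After TAA, all 9 tested genes had lower scaled FPKM than in the control group at an FDR below 0.05, with no overlap between the groups, although Mccc1 and, under 1 scaling, Dbt were higher with other scalings. Of these genes 6 were DEGs, Pccb, Ivd, Mccc2, Pcca, Bcat2 and Bckdha, at 31.2% to 45.0% of the control mean. Bckdhb, Dbt and Mccc1 fell by less, to 56.0%, 64.1% and 70.4%. Over all tested genes, 8.02% were DEGs lower in the TAA group, 26.3% were lower at an FDR below 0.05 and 31.0% were lower without overlap. The median log2 fold change was -1.18 for the 9 genes and 0.02 for all tested genes.

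**Figure D1:**
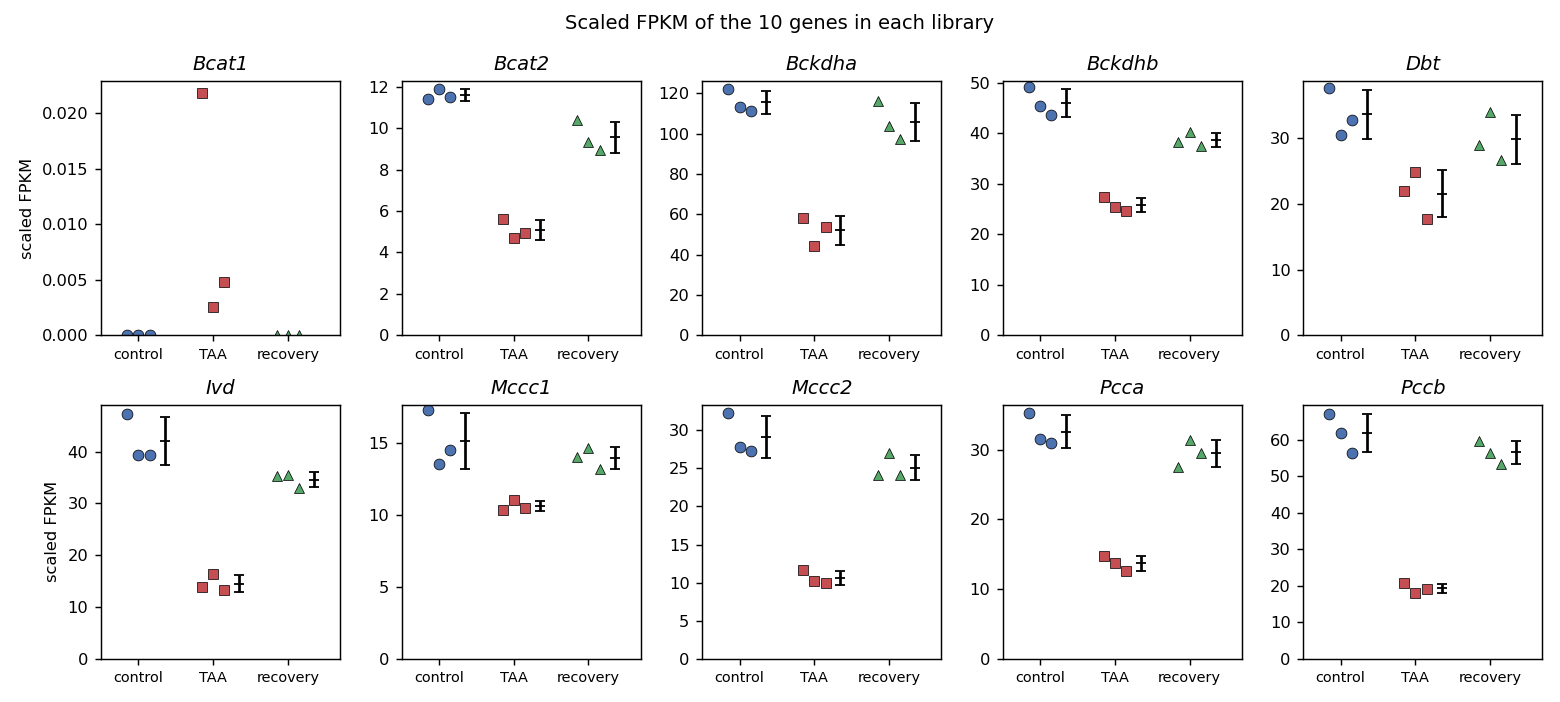
Scaled FPKM (y axis, linear from 0, its own range for each gene) of the 10 genes in the control (circles), TAA (squares) and recovery (triangles) libraries, with bars for the mean ± SD (n = 3) except for Bcat1. For the 9 genes other than Bcat1 the TAA libraries lie below all control and all recovery libraries, from 18.0 to 20.7 against 56.5 to 67.1 in control for Pccb and from 10.4 to 11.0 against 13.5 to 17.3 for Mccc1, whose direction turned under other scalings.

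The transaminases were Bcat1, the cytosolic enzyme, and Bcat2, the mitochondrial one. Bcat1 (chr6:144993835-145076184, mm10) had 0 FPKM in the control and the recovery libraries, without exception, and 0.0281, 0.00330 and 0.00663 in the deposited TAA values, an estimated 11, 1 and 2 fragments. A count of 3 would correspond to 0.00793 to 0.0120 FPKM in these libraries, so 1 TAA library stood above that level and the others did not. Bcat1 was below the minimum of 0.1 mean FPKM and was not tested.

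Bcat2 (chr7:45570153-45589711) had 11.4, 11.9 and 11.5 scaled FPKM in the control libraries, 5.61, 4.70 and 4.93 in the TAA libraries and 10.4, 9.34 and 8.95 in the recovery libraries. The 3 groups did not overlap, with recovery between the others. Its log2 fold change was -1.18 ± 0.10 (SE, n = 3 per group) in TAA against control (limma FDR 7.49e-05). An antisense gene that is not in the table shares 15.9% of its exon bases.

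BCKDH consists of a decarboxylase (E1), whose α and β subunits are encoded by Bckdha and Bckdhb, the transacylase core (E2) encoded by Dbt, and a dehydrogenase (E3) that it shares with other complexes. Bckdha (chr7:25629946-25658981) had 122, 113 and 111 scaled FPKM in control, 58.1, 44.1 and 53.7 in TAA and 116, 104 and 97.4 in recovery. It was the highest of the 10 genes in every group, and its control and recovery values overlapped. It fell by 1.16 ± 0.12 on the log2 scale in the TAA group (limma FDR 0.000151).

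Of the exon bases of Bckdha, 61.7% (1171 bases) are shared with B3gnt8 on the opposite strand, and whether reads were counted by strand was not stated. B3gnt8, a glycosyltransferase gene, had 0.284 to 1.63 scaled FPKM over the 9 libraries, with a log2 fold change of -0.93 (limma FDR 0.0986) in TAA against control. The share of Bckdha fragments that belong to it was not tested.

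Bckdhb (chr9:83925145-84124240) had 49.1, 45.5 and 43.6 scaled FPKM in control, 27.3, 25.4 and 24.7 in TAA and 38.3, 40.2 and 37.4 in recovery. Here recovery lay between the other groups without overlap. Dbt (chr3:116513070-116549981) had 37.7, 30.4 and 32.8 in control, 22.0, 24.9 and 17.7 in TAA and 29.0, 33.9 and 26.7 in recovery, the widest spread relative to the mean of the 9 tested genes in the TAA and recovery groups, and control and recovery overlapped. The log2 fold changes in TAA against control were -0.83 ± 0.09 for Bckdhb (limma FDR 0.000171) and -0.65 ± 0.14 for Dbt (limma FDR 0.00650). With each library scaled to the same sum, Dbt had a log2 fold change of 0.18 (limma FDR 0.263).

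In the leucine route, isovaleryl-CoA dehydrogenase (Ivd) acts after BCKDH, and the biotin-dependent methylcrotonyl-CoA carboxylase, of the subunits Mccc1 and Mccc2, acts next. Ivd (chr2:118861954-118882909) had 47.3, 39.4 and 39.4 scaled FPKM in control, 14.0, 16.4 and 13.2 in TAA and 35.3, 35.5 and 33.0 in recovery. All recovery libraries lay below all control libraries and above all TAA libraries. Its log2 fold change in TAA against control was -1.53 ± 0.12 (limma FDR 4.81e-05).

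Mccc2 (chr13:99948530-100015639), the β subunit, had 32.2, 27.8 and 27.3 scaled FPKM in control, 11.6, 10.2 and 9.998 in TAA and 24.1, 27.0 and 24.1 in recovery. Mccc1 (chr3:35959312-36000678), the biotin-carrying α subunit, had 17.3, 13.5 and 14.5 in control, 10.4, 11.0 and 10.5 in TAA and 14.0, 14.7 and 13.2 in recovery. In scaled FPKM, Mccc2 was about as high as Mccc1 in the TAA libraries and above it in the others. The log2 fold changes in TAA against control were -1.45 ± 0.11 for Mccc2 (limma FDR 3.68e-05) and -0.50 ± 0.11 for Mccc1 (limma FDR 0.00683). For Mccc1 the deposited values before scaling gave 0.14 (limma FDR 0.266), and each library scaled to the same sum gave 0.33 (limma FDR 0.0403).

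Propionyl-CoA carboxylase, also biotin-dependent, has the α subunit Pcca and the β subunit Pccb and takes up the propionyl-CoA from valine and isoleucine. Pcca (chr14:122534324-122891100) had 35.3, 31.5 and 30.9 scaled FPKM in control, 14.7, 13.7 and 12.5 in TAA and 27.5, 31.4 and 29.4 in recovery. Pccb (chr9:100982032-101034898) had 67.1, 62.1 and 56.5 in control, 20.7, 18.0 and 19.2 in TAA and 59.8, 56.5 and 53.5 in recovery. For both genes control and recovery overlapped and TAA stood apart. Pccb had the largest change of the 9 genes in TAA against control, -1.68 ± 0.10 (limma FDR 1.48e-05), and Pcca changed by -1.25 ± 0.10 (limma FDR 4.93e-05). Ggact on the opposite strand shares 4.63% of the exon bases of Pcca.

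Since FPKM are per kilobase, levels can be set side by side between genes, as far as the gene lengths used were right. In the control group the mean ran from 116 for Bckdha through 61.9 for Pccb, 46.1 for Bckdhb, 42.0 for Ivd, 33.6 for Dbt, 32.6 for Pcca, 29.1 for Mccc2 and 15.1 for Mccc1 to 11.6 scaled FPKM for Bcat2. The libraries of Bckdhb and Ivd overlapped, as did those of Dbt, Pcca and Mccc2, and the other neighbours in this order did not. In the TAA group the order was Bckdha at 52.0, Bckdhb at 25.8, Dbt at 21.6, Pccb at 19.3, Ivd at 14.5, Pcca at 13.7, Mccc1 at 10.7, Mccc2 at 10.6 and Bcat2 at 5.08 scaled FPKM. Pccb thus stood above Bckdhb, Ivd and Dbt in control and below Bckdhb in every TAA library. The exons of Mccc1 in the annotation add up to 10952 bases and those of Mccc2 to 2802, and the lengths behind the FPKM were not given in the sources used here.

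After recovery, all 9 genes had higher scaled FPKM than in the TAA group at an FDR below 0.05, where 24.5% of all tested genes did, with no overlap, where 29.4% did, although Mccc1, Dbt and Bckdhb were lower under other scalings. The DEGs were Pccb, Ivd, Mccc2, Pcca and Bckdha, 5 of 9, where 7.12% of all tested genes were DEGs higher in the recovery group. This comparison shares the TAA libraries with the one before. The log2 fold changes were 1.55 ± 0.09 for Pccb, 1.25 ± 0.10 for Ivd, 1.24 ± 0.10 for Mccc2, 1.10 ± 0.10 for Pcca and 1.03 ± 0.12 for Bckdha (limma FDR 1.61e-05 to 0.000373). Bckdha passed the fold change limit narrowly and had 0.92 without the second TAA library and 0.96 without the first recovery library.

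Bcat2, the mitochondrial transaminase gene, changed by 0.90 ± 0.11 (limma FDR 0.000431) and Bckdhb by 0.58 ± 0.08 (limma FDR 0.000806). The smallest changes were those of Dbt, 0.48 ± 0.15 (limma FDR 0.0276), and Mccc1, 0.39 ± 0.09 (limma FDR 0.00763). Neither reached a fold change of 2, and the FDR of Dbt ranged from 0.0170 to 0.0924 with 1 library left out.

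Between the recovery and control groups, none of the 9 genes was a DEG or had a limma FDR below 0.05, where 0.993% of all tested genes were DEGs in either direction and 1.38% were lower at an FDR below 0.05. At an unadjusted p below 0.05 there were 3, Bcat2, Ivd and Bckdhb, against 23.0% of all tested genes. The means of the 9 genes were at 82.3% to 92.3% of control, and all 9 log2 fold changes were negative, from -0.28 to -0.11. Recovery was below control without overlap for 4 genes, Bcat2, Bckdhb, Ivd and Mccc2, and 15.6% of all tested genes were lower in this way. The difference of Bcat2 was -0.28 (95% confidence interval -0.48 to -0.08, limma FDR 0.120) and that of Pccb -0.13 (-0.33 to 0.08, limma FDR 0.424).

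**Figure D2:**
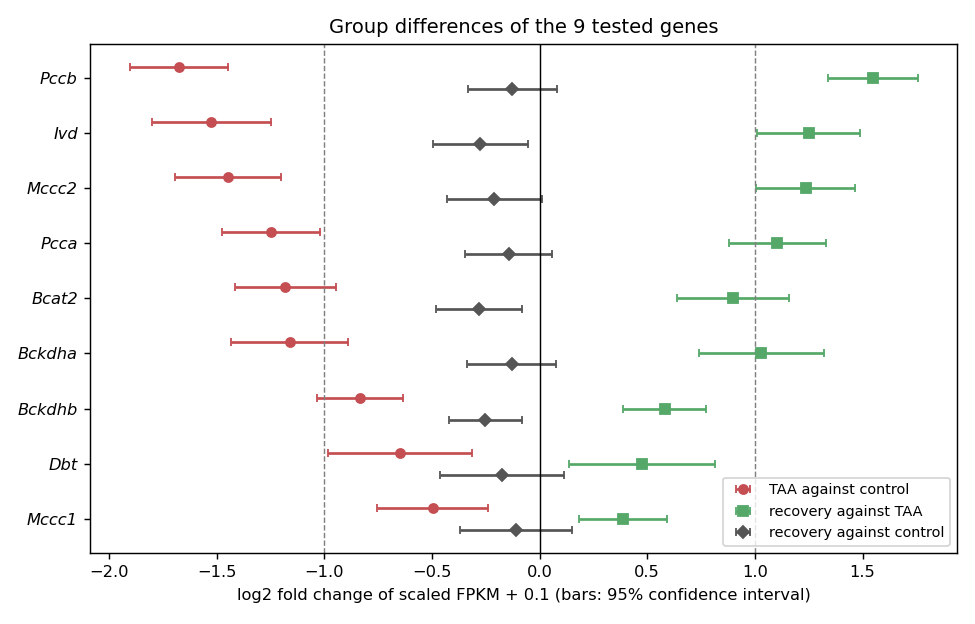
Log2 fold change of scaled FPKM + 0.1 (x axis) with its 95% confidence interval for the 9 tested genes (y axis) in TAA against control (circles), recovery against TAA (squares) and recovery against control (diamonds), with dashed lines at a fold change of 2. Pccb is at -1.68, 1.55 and -0.13 and Mccc1 at -0.50, 0.39 and -0.11, and the signs of Mccc1, Dbt and Bckdhb in the comparisons with TAA were not the same under every scaling.

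The scaling sets the size of these changes. Without it the median of all tested genes was 0.63 higher in TAA than in control on the log2 scale, and 0.02 with it. In the deposited FPKM, Pccb in the TAA group was at 48.6% of control, Bckdhb at 87.2%, Dbt at 99.6% and Mccc1 at 110%, and 1 gene, Pccb, was a DEG, lower, where 2.99% of all tested genes were DEGs lower and 31.1% higher. With each library scaled to the same sum, none of the 9 was a DEG, where 2.43% of all tested genes were DEGs lower and 40.4% higher. With this scaling 6 were lower and 1, Mccc1, higher at a limma FDR below 0.05, where 6.09% of all tested genes were lower and 72.1% higher. With quantile normalization 4 were DEGs lower, Pccb, Ivd, Mccc2 and Bcat2, where 9.30% of all tested genes were. Scaling by 1 factor per library moves all genes nearly alike, so it leaves their places relative to the median of all tested genes almost as they were. Quantile normalization can change them, and with it the 9 genes were at -1.24 to -0.25 relative to the median log2 fold change in TAA against control.

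**Figure D3:**
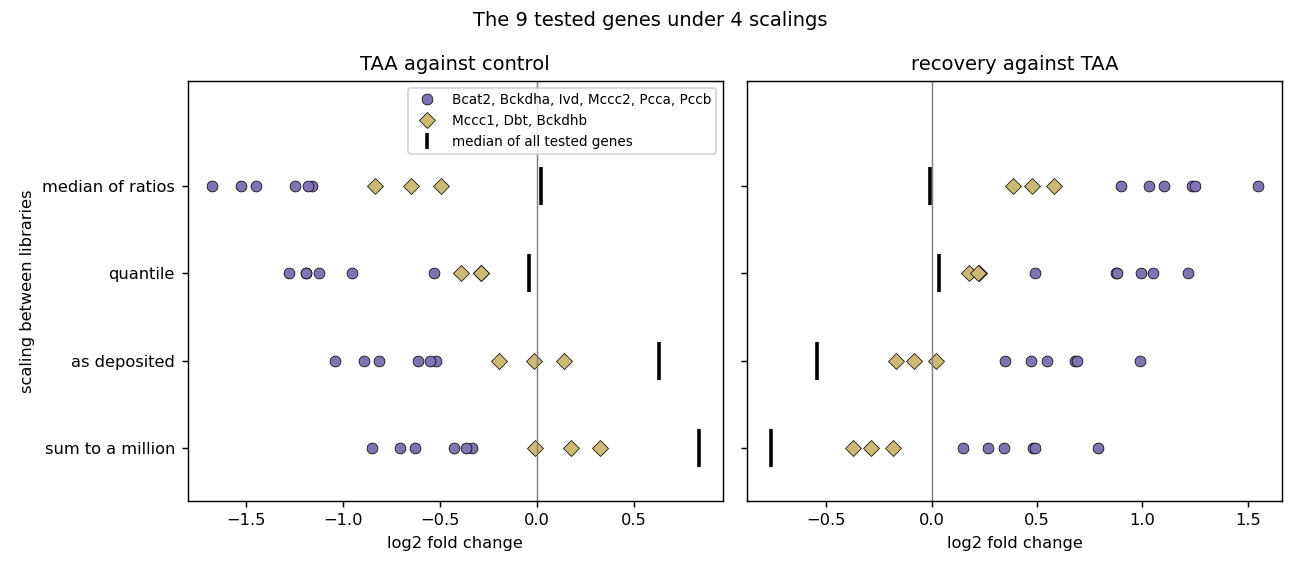
Log2 fold change (x axis) of the 9 tested genes under 4 scalings between libraries (y axis) in TAA against control and in recovery against TAA, with circles for Bcat2, Bckdha, Ivd, Mccc2, Pcca and Pccb, diamonds for Mccc1, Dbt and Bckdhb, and a bar for the median of all tested genes. In TAA against control the bar lies between -0.04 and 0.83, and Mccc1 moves from -0.50 with median-of-ratios scaling to 0.33 with the same sum.

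Ratios between partner genes within a library do not depend on the factor of that library. For 5 ratios, groups were compared with an exact two-sided permutation test over libraries, in which 3 against 3 cannot give a p below 0.1, and the 15 comparisons were adjusted together. Mccc1 to Mccc2 had log2 ratios of -0.89, -1.03 and -0.90 in control, -0.16, 0.12 and 0.07 in TAA and -0.78, -0.88 and -0.87 in recovery. The TAA libraries were near an equal scaled FPKM of both genes and apart from all others. The level of the ratio, unlike its shift between groups, rests on gene lengths that were not given. The difference of TAA against control was 0.95, a 1.93-fold change of the ratio (exact p = 0.1, adjusted 0.125, the smallest possible), and that of recovery against TAA was -0.85 (exact p = 0.1).

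Pcca to Pccb changed in the same sense, the α subunit being the higher relative to the β subunit in TAA. Its log2 ratio was -0.92 ± 0.05 (SD, n = 3) in control, -0.49 ± 0.11 in TAA and -0.94 ± 0.15 in recovery. TAA did not overlap with either group (exact p = 0.1 for both), and control and recovery overlapped (exact p = 1).

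Within E1 of BCKDH, Bckdha to Bckdhb was 1.33 ± 0.02 in control, 0.999 ± 0.18 in TAA and 1.45 ± 0.13 in recovery, without overlap between any of the groups (exact p = 0.1 for each). Dbt relative to the mean of Bckdha and Bckdhb was -1.12 ± 0.10 in control, -0.77 ± 0.31 in TAA and -1.10 ± 0.15 in recovery. The lowest TAA library, at -1.03, and the highest control library, at -1.04, almost met, and the difference of 0.35 was 0.17 without the second TAA library.

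**Figure D4:**
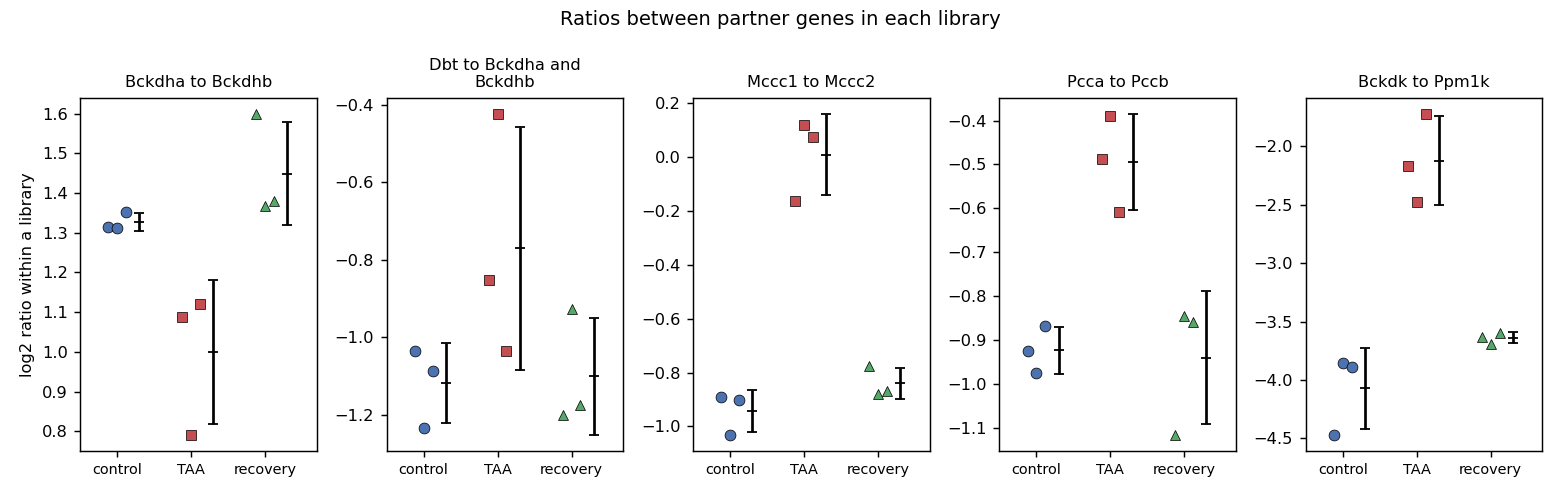
Log2 ratio of scaled FPKM + 0.1 between partner genes (y axis, which does not start at 0 and differs between panels) in each control (circles), TAA (squares) and recovery (triangles) library, with bars for the mean ± SD (n = 3). Mccc1 to Mccc2 is -0.94 in control, 0.01 in TAA and -0.84 in recovery, and Bckdk to Ppm1k is -4.07, -2.12 and -3.64.

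BCKDH is switched off by phosphorylation of E1 through the kinase Bckdk and switched on by the phosphatase Ppm1k. Ppm1k had 71.3, 48.5 and 64.9 scaled FPKM in control, 14.5, 13.1 and 11.2 in TAA and 38.6, 44.0 and 44.1 in recovery. It was lowest in all TAA libraries. Its recovery libraries lay below control without overlap, as those of 15.6% of all tested genes did, at -0.53 (limma FDR 0.110). Bckdk had 3.12, 3.26 and 4.28 in control, 2.27 to 3.33 in TAA and 3.02 to 3.55 in recovery, and all groups overlapped. The log2 fold change of Ppm1k was -2.23 ± 0.16 in TAA against control (limma FDR 3.64e-05) and 1.71 ± 0.12 in recovery against TAA (limma FDR 2.81e-05).

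Bckdk had log2 fold changes of -0.28 ± 0.19 (limma FDR 0.241) and 0.19 ± 0.17 (limma FDR 0.378) in these comparisons. The log2 ratio of the kinase to the phosphatase gene was therefore 1.95 higher in TAA than in control, 3.87-fold, and 0.43 higher in recovery than in control, without overlap in either case (exact p = 0.1, adjusted 0.125). These are transcript levels, and phosphorylation was not measured. The shared E3 gene Dld was at -0.46 ± 0.12 in TAA against control (limma FDR 0.0135), and at 0.18 (limma FDR 0.135) without scaling. Bckdk was at 0.34 (limma FDR 0.174) without scaling.

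The regulators, transporters and further steps of the pathway made up 28 genes, taken as lists of symbols. Of these, 12 were DEGs lower and 2 higher in TAA against control, where 8.02% and 17.0% of all tested genes were. At a limma FDR below 0.05, 19 were lower and 5 higher (26.3% and 28.2% of all tested genes), and their median log2 fold change was -0.90. In the deposited FPKM without scaling, 4 were DEGs lower and 5 higher (2.99% and 31.1% of all tested genes), and the sign of 6 turned, Bckdk, Dld, Hlcs, Mmaa, Slc25a44 and Slc43a1, all to higher in TAA. In recovery against TAA 9 were DEGs, all higher, where 7.12% of all tested genes were DEGs higher. There, 18 were higher and 5 lower at a limma FDR below 0.05 (24.5% and 26.0% of all tested genes). Without scaling 3 were DEGs higher and 4 lower (2.90% and 26.5% of all tested genes). The sign of 4 turned without scaling, Bckdk, Dld, Hlcs and Mmaa, all to lower in recovery. With each library scaled to the same sum the sign of 8 turned to lower, those of the same genes and of Auh, Echs1, Hibadh and Hibch. In recovery against control none was a DEG in limma (0.993% of all tested genes were, in either direction). An unadjusted p below 0.05 was found for 9, against 23.0% of all tested genes. Hadhb was lower at -0.44 (limma FDR 0.0439), or -0.36 without scaling (limma FDR 0.0427). Its limma FDR was 0.0710 with each library scaled to the same sum and 0.0507 with quantile normalization.

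All 3 genes of the isoleucine route were DEGs lower in TAA against control, where 8.02% of all tested genes were. Hsd17b10 and Acat1 were DEGs higher in recovery against TAA, where 7.12% of all tested genes were. Hsd17b10, a mitochondrial dehydrogenase, was at -2.13 ± 0.14 in TAA against control and 1.69 in recovery against TAA, and Acat1, the thiolase of the last step, at -1.95 ± 0.14 and 2.04. Acadsb, the short/branched-chain acyl-CoA dehydrogenase, was at -1.07 ± 0.31 (limma FDR 0.0217) but rested on the first control library, with 44.6 scaled FPKM against 20.1 and 20.0 in the others, and was at -0.69 without it. It was no DEG without the first or the third TAA library either (limma FDR 0.0738 and 0.0654).

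All 4 genes of the valine route were lower in TAA against control at a limma FDR below 0.05, where 26.3% of all tested genes were. Aldh6a1, the methylmalonate semialdehyde dehydrogenase, had 161 to 201 scaled FPKM in control, 47.5 to 59.0 in TAA and 146 to 152 in recovery, with log2 fold changes of -1.70 ± 0.12 and 1.47 ± 0.10. Hibch, a hydrolase, was at -1.04 and passed 2-fold narrowly, being at -0.96 without the first control and -0.90 without the third TAA library. Hibadh, a dehydrogenase, was at -0.94, and at -1.001 without the first TAA library and -1.03 without the third control library, where it was a DEG. The count depended on the scaling. With each library scaled to the same sum, Hibch was at -0.22 (limma FDR 0.146) and Hibadh at -0.12 (limma FDR 0.423). Aldh6a1 was then at -0.87 (limma FDR 0.000291).

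In the leucine route after Mccc, Auh, a hydratase, was at -0.99 and was a DEG, at -1.01 to -1.05, without the first TAA, the second control or the third control library. Of the enzymes shared with fatty acid oxidation, Hadhb and Hadha, the subunits of the trifunctional protein, were at -1.36 and -1.10, and Echs1, a hydratase, was at -0.87.

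After propionyl-CoA carboxylase, methylmalonyl-CoA mutase (Mmut) was at -1.37 ± 0.12 in TAA against control (limma FDR 9.81e-05) and 1.17 ± 0.11 in recovery against TAA, the epimerase Mcee at -0.83 and Mmaa, which serves the cobalamin cofactor of the mutase, at -0.59, or 0.03 without scaling. Mmab, which makes that cofactor, was chosen after its values were seen, as the 1 gene of these 4 that was higher in TAA, at 0.49 (limma FDR 0.00974). Biotinidase (Btd), which recycles the biotin of both carboxylases, was at -1.47 ± 0.11 and 1.54 ± 0.09, and Hlcs, which attaches biotin, at -0.15 (limma FDR 0.489), or 0.47 without scaling. Without scaling Mmut was at -0.73 and 0.61 and Btd at -0.84 and 0.98, DEGs in neither comparison. Mmab was then a DEG higher in TAA against control, at 1.12 (limma FDR 0.000189).

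Klf15, a transcription factor known for its part in branched-chain amino acid breakdown, had 83.0, 88.6 and 90.8 scaled FPKM in control, 28.8, 25.8 and 34.3 in TAA and 71.9, 61.7 and 50.7 in recovery. Its log2 fold change was -1.57 ± 0.12 in TAA against control (limma FDR 3.85e-05) and 1.05 ± 0.15 in recovery against TAA, which was 0.95 without the second TAA library and 0.92 without the first recovery library. Without scaling Klf15 was at -0.93 and 0.48, a DEG in neither comparison. Slc25a44, the mitochondrial carrier of these amino acids, was at -0.09 in TAA against control (limma FDR 0.589), with all groups overlapping, and at 0.54 (limma FDR 0.00526) without scaling.

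Of the 5 transporters of the cell surface, 4 were higher in TAA than in control at a limma FDR below 0.05, where 28.2% of all tested genes were. Slc43a2 was at 1.07 ± 0.26 and Slc7a8 at 1.03 ± 0.23 in TAA against control, the 2 higher DEGs, and Slc3a2, the partner chain of several transporters, was at 0.57 (limma FDR 0.0131). Without the first control library Slc43a2 was at 0.77 and Slc7a8 at 0.78, and neither was a DEG. Slc43a2 was also under 2-fold without the first TAA library (0.96), and Slc7a8 without the third (0.98). Without scaling Slc3a2 (1.20) and Slc7a5 (1.07) were DEGs as well, whereas with quantile normalization Slc7a8 was at 0.54 (limma FDR 0.0610) and Slc7a5 at 0.04 (limma FDR 0.862). In recovery against TAA, Slc43a2 was at -0.96, and at -1.03 to -1.12 and a DEG without the second TAA, the second recovery or the third recovery library.

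**Figure D5:**
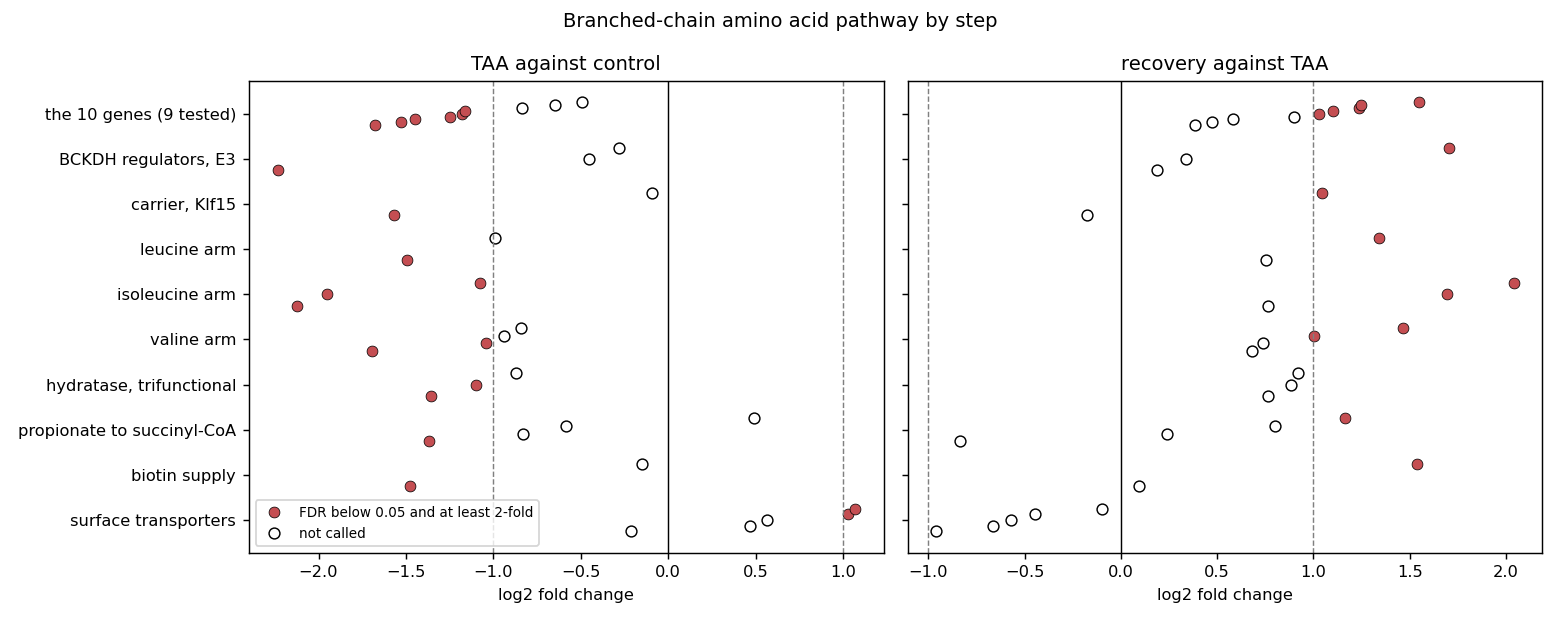
Log2 fold change (x axis) of the 9 tested genes and the 28 further genes, by step of the pathway (y axis), in TAA against control and recovery against TAA, with filled circles for DEGs, open circles for other genes and dashed lines at a fold change of 2. Ppm1k at -2.23 and Hsd17b10 at -2.13 lie farthest to the left in TAA against control, and Slc43a2 at 1.07 and Slc7a8 at 1.03 are the DEGs on the right.

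Related enzymes outside the pathway, the pyruvate and oxoglutarate dehydrogenase complexes and the other biotin-dependent carboxylases, were set beside the 9 genes. Of these 9 related genes, 1 was a DEG lower and 1 higher in TAA against control, where 8.02% and 17.0% of all tested genes were. At a limma FDR below 0.05, 5 were lower, where 26.3% of all tested genes were, and their log2 fold changes had a median of -0.53 and ran from -1.96 to 1.15. Pyruvate carboxylase (Pc) was at the low end and acetyl-CoA carboxylase (Acaca) at the high end. The median of the 9 branched-chain genes was -1.18.

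As a description, the 5 tested genes outside the lists whose log2 values were most like the mean of the 9 genes over the 9 libraries were Lrfn4, Kif1b, Dpyd, Dhdh and Maob, with Pearson's r of 0.998, 0.997, 0.996, 0.996 and 0.996. Their log2 fold changes in TAA against control were -1.98, -1.27, -2.41, -1.69 and -1.53. The libraries share their groups and scaling, and the group pattern alone gives high values of r. Among the 9 genes, r with their mean was lowest for Dbt at 0.916 and highest for Mccc2 at 0.996.

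Markers of other cell types moved with the TAA group. Of 6 hepatocyte markers 2 were DEGs lower and none higher in TAA against control, where 8.02% and 17.0% of all tested genes were. Their summed level was 40304 to 43715 scaled FPKM in control, 25128 to 32488 in TAA and 50189 to 52031 in recovery. In the deposited FPKM this sum was not lower in TAA, at 34275 to 37389 in control and 34593 to 41832 in TAA, with Alb, Ttr, Tf and Fga at 111% to 141% of control and Apoa1 and Serpina1a at 53.1% and 54.1%. All 6 stellate cell and myofibroblast markers were DEGs higher in TAA, summing to 13.4 to 14.0 in control, 154 to 221 in TAA and 12.3 to 20.0 in recovery. All 5 bile duct markers were too, at 15.7 to 20.9, 295 to 442 and 27.9 to 38.4. The hepatocyte markers had a median log2 fold change of -0.49, from -1.55 to -0.13, and the 9 genes of -1.18, from -1.68 to -0.50. These ranges overlap.

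Of the other lists, all 3 proliferation markers were DEGs higher in TAA, as were 2 of 5 macrophage and 1 of 5 lymphocyte markers and 0 of 4 endothelial markers, 1 of which had an unadjusted p below 0.05. Of all tested genes 17.0% were DEGs higher in TAA. All 5 skeletal muscle markers were at 0 in control, while 1 TAA library, the third, reached a sum of 30.4 scaled FPKM and stood apart in this. Without this library 6 of the 9 genes were still DEGs lower in TAA than in control and 5 were DEGs higher in recovery than in TAA. The first control library was the lowest control in all 4 endothelial markers, with Kdr at 12.5 against 21.2 and 22.6 scaled FPKM. Without that control library 6 of the 9 genes were also DEGs lower in TAA than in control. The part of any other cell type in the changes of the 9 genes was not tested.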

How the data were processed

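Liver RNA of 9 mice was sequenced as paired-end reads. The authors mapped the reads to mm10 with HISAT2 2.2.1, counted them on genes with featureCounts 1.5.0-p3, per the submitters' processing notes, and deposited FPKM values, with 1 column per mouse. The annotation release and the strand setting were not given in the sources used here. Loci were identical to GENCODE M21 for 92.7% of genes, including all 10 studied here.

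Libraries were scaled by median-of-ratios factors. The limma package 3.58.1 (lmFit, then eBayes with a trend; R 4.3.3) was applied to log2(scaled FPKM + 0.1) of the genes whose mean FPKM reached 0.1. Each fit used the 6 libraries of its groups, with Benjamini-Hochberg adjustment over all tested genes. Reads were not recovered as counts, since 56.1% to 62.5% of low values were whole within 0.08, where 16% would be by chance, so the depth is an estimate. Tables were handled in pandas 2.3.3 and numpy 2.4.6 under Python 3.11.15, and the fit was tested on simulated data.

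All 10 genes are named, as are Bckdk, Ppm1k, Slc25a44 and Klf15 and, from each further list, up to 3 genes with the largest change in TAA against control. The genes and lists were chosen with earlier results of these data known. Alternatives to the pseudocount, filter, scaling, pooling of groups, test, pairing and set of mice were tried. Values of 1 gene of the further lists are not reported here. Small RNA data were not analysed here.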

Additional observations from a re-analysis of the deposited data

How the results depend on the processing

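The number of the 9 genes that were DEGs in TAA against control (6) was 1 without scaling, 0 with each library scaled to the same sum, 4 with quantile normalization and 3 in limma's test against a 2-fold change (treat), and that in recovery against TAA (5) was 0, 0, 2 and 1. The corresponding counts of the 28 further genes were 9, 8, 7 and 8 in TAA against control (14 as reported), and 7, 6, 5 and 6 in recovery against TAA (9 as reported, all higher), of which 4, 5, 1 and 0 were lower. Under these scalings, in the same order, 2.99%, 2.43% and 9.30% of all tested genes were DEGs lower in TAA against control. DEGs higher were 31.1%, 40.4% and 11.3%. In recovery against TAA 2.90%, 2.23% and 8.31% were DEGs higher and 26.5%, 35.9% and 9.98% lower. Of 14094 genes treat called 500 lower and 941 higher in TAA against control, and 401 higher and 683 lower in recovery against TAA. Treat asks for a change beyond 2-fold and so makes fewer calls by construction, and the cause of the differences between scalings was not tested. The sign turned in 8 of 432 refits of a single gene among the 9. Mccc1 in TAA against control was 0.14 without scaling and 0.33 scaled to the same sum, and in recovery against TAA -0.17 and -0.37. Dbt was 0.18 scaled to the same sum in TAA against control, and -0.084 without scaling and -0.29 scaled to the same sum in recovery against TAA. Bckdhb was -0.18 scaled to the same sum in recovery against TAA. In the other refits 389 kept their direction and call and 35 kept their direction only. Under quantile normalization the log2 ratio difference of Bckdha to Bckdhb was -0.14 in TAA against control and 0.27 in recovery against TAA, that of Pcca to Pccb 0.33 in TAA against control, and those of Bckdk to Ppm1k 1.43 and -1.11.

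With 1 library left out, the 9 genes gave 6 to 6, 4 to 5 and 0 to 0 DEGs in TAA against control, recovery against TAA and recovery against control, and the 28 further genes 10 to 16, 8 to 9 and 0 to 0. Replicate numbers were not taken as a pairing of the mice. Correlations between same-numbered libraries were -0.07 to 0.12, and not every library was closest to its own number. With 3 libraries per group this cannot show that there was no pairing. With the replicate number as a block, 6, 5 and 0 of the 9 genes and 14, 9 and 0 of the further genes were DEGs, while the count over all genes in recovery against control fell from 140 to 17. With 3 mice per group, exact tests of ratios could not go below 0.1. With no filter Bcat1 was fitted as well, and it was no DEG in any comparison. This was fixed in advance, since with at most 0.0218 scaled FPKM and 0.1 added before the log it could not reach a 2-fold change.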
